A study of Mus musculus with 11 samples.

Results

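RNA-seq of beige adipocytes transduced with the S265D-H1120Y mutant of human JMJD1A was compared with RNA-seq of the same cells transduced with S265D-hJMJD1A. The comparison holds 2 of the 11 samples of the series, 1 for each mutant, and 9160 of the 29955 genes in the deposited files, those with an FPKM (fragments per kilobase of exon, scaled to the library) of at least 5 in either mutant. Sense transcripts marked by the authors as representative were used. The question of the comparison is what removal of the demethylase activity did to transcripts of all kinds in cells that carried the phosphomimetic protein. Both cultures were im-scWAT cells, a preadipocyte line immortalized from mouse inguinal subcutaneous white fat, harvested on day 8 of differentiation in the presence of 0.5 μM rosiglitazone, an activator of PPARγ that drives beige differentiation. The labels and the paper do not give the same account of whether rosiglitazone was withdrawn on day 7. Every transduced sample, the controls included, carried an shRNA against mouse Jmjd1a and a V5-tagged human JMJD1A cDNA. The cDNA was expressed from a retroviral LTR in cells selected with zeocin, so neither the promoter nor the cells were those of the animal. In S265D an aspartate stood in for the serine that protein kinase A phosphorylates, and in S265D-H1120Y the iron-binding histidine of the catalytic domain was replaced by tyrosine as well. The other transduced samples were wild-type WT-hJMJD1A, with samples A and B (here WT A and WT B), and S265A-hJMJD1A, in which the serine cannot be phosphorylated. An untransduced day 8 sample differentiated with rosiglitazone is given as a further reference.

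JMJD1A, also named KDM3A, is a dioxygenase that uses iron and 2-oxoglutarate to remove methyl groups from lysine 9 of histone H3, a mark that goes with silent chromatin. In brown fat it is phosphorylated after β-adrenergic stimulation and acts near genes of heat production and fatty acid oxidation, and mice without it become obese. Beige adipocytes are cells of white fat that acquire mitochondria, small lipid droplets and the uncoupling protein Ucp1 when stimulated. Secretory cells such as adipocytes also rely on the unfolded protein response, in which the sensors PERK, IRE1 and ATF6 raise chaperones of the endoplasmic reticulum (ER), and on the integrated stress response, in which phosphorylation of eIF2α raises the transcription factors ATF4, CHOP and ATF3 and through them genes of amino acid supply.

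The S265D sample rested on 4.95 Gb and the S265D-H1120Y sample on 4.59 Gb of mapped bases, in a series that ran from 3.10 to 5.29 Gb. At the median exon length of the genes compared, 2566.5 bases, an FPKM of 5 corresponded to 63.6 kb of mapped bases in S265D and to 58.9 kb in S265D-H1120Y. Read counts were not given in the files used here, and with 1 sample for each mutant no difference between them has a replicate check. Only WT-hJMJD1A had a second sample, and WT B over WT A (the WT pair) is given beside the results as the spread of 1 group. The labels do not say whether these 2 samples came from separate cultures. Kdm3a, the mouse gene of JMJD1A and the target of the shRNA, had an FPKM of 20.4 in WT A, 17.9 in WT B, 13.0 in S265A, 23 in S265D and 28.5 in S265D-H1120Y. Its FPKM was 21.1 in untransduced cells, inside the range of the transduced samples, and the sources used here do not say whether reads of the human cDNA entered them, so these values check neither the knockdown nor the level of the mutants. Markers of adipocytes were high in both mutants, with the FPKM of Fabp4, the fatty acid carrier of fat cells, at 22872 (S265D) and 14128 (S265D-H1120Y). Of the markers of other cell types, the endothelial list had no gene at an FPKM of 5, and the macrophage list had 1, Cd68, while Ptprc, Emr1, C1qa and C1qb were at an FPKM of 0 in both mutants.

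Of the 9160 genes, 291 were at least 2-fold lower in S265D-H1120Y (3.18%) and 176 at least 2-fold higher (1.92%), all ratios being taken of FPKM + 0.1, which understates the change of genes at low FPKM. Among them 68 genes were at least 4-fold lower and 22 at least 4-fold higher. The median FPKM of the lower genes was 13.7 for S265D and 4.39 for S265D-H1120Y, and that of the higher genes 9.04 and 22.8. The median log2 ratio over all genes was -0.01 and the quartiles were -0.26 and 0.23. Between WT A and WT B, 525 of these genes were at least 2-fold lower in WT B (5.73%) and 755 at least 2-fold higher (8.24%). More of them thus passed 2-fold in the pair of 1 group than between the mutants. The FPKM minimum was set on the mutants alone, here and for the lists below. The WT counts therefore include genes below it in both samples of the pair, such as Ces1a (0.0682 in WT A and 2.54 in WT B). In limma, with the spread of that pair and 1 residual degree of freedom, 0 of 9160 genes passed an adjusted p of 0.05 (0.0%), and 130 had an unadjusted p under 0.05, 78 of them lower and 52 higher. None of the differences below therefore passed a test, and they are given as values of single samples. Values given by sample are FPKM, and where a gene is followed by a pair of values the first is S265D and the second S265D-H1120Y. Counts of list members past 2-fold are to be read beside the 3.18% lower and 1.92% higher of all genes. At the limit itself, Cd1d2 (5.92 and 2.91) was the last gene counted as lower and Arhgef6 (8.79 and 4.35) the first not counted.

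The genes higher in S265D-H1120Y and those lower in it stood differently against the other samples. S265D-H1120Y was the highest of the 5 transduced samples for 166 of the 176 higher genes (94.3%), against 22.0% of all genes. It was the lowest of the 5 for 189 of the 291 lower genes (64.9%), against 25.1% of all genes. For 72 of the lower genes S265D was the highest of the 5 and S265D-H1120Y the lowest, against 3.36% of all genes, for 117 only S265D-H1120Y stood at that end, for 58 only S265D, and for 44 neither. For 31 of the higher genes S265D was the lowest and S265D-H1120Y the highest, against 3.2% of all genes, and for 135 only S265D-H1120Y stood at an end. These counts lean on the fold itself, since a gene at least 2-fold lower in 1 sample than in another is already likely to lie at an end.

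**Figure D1:**
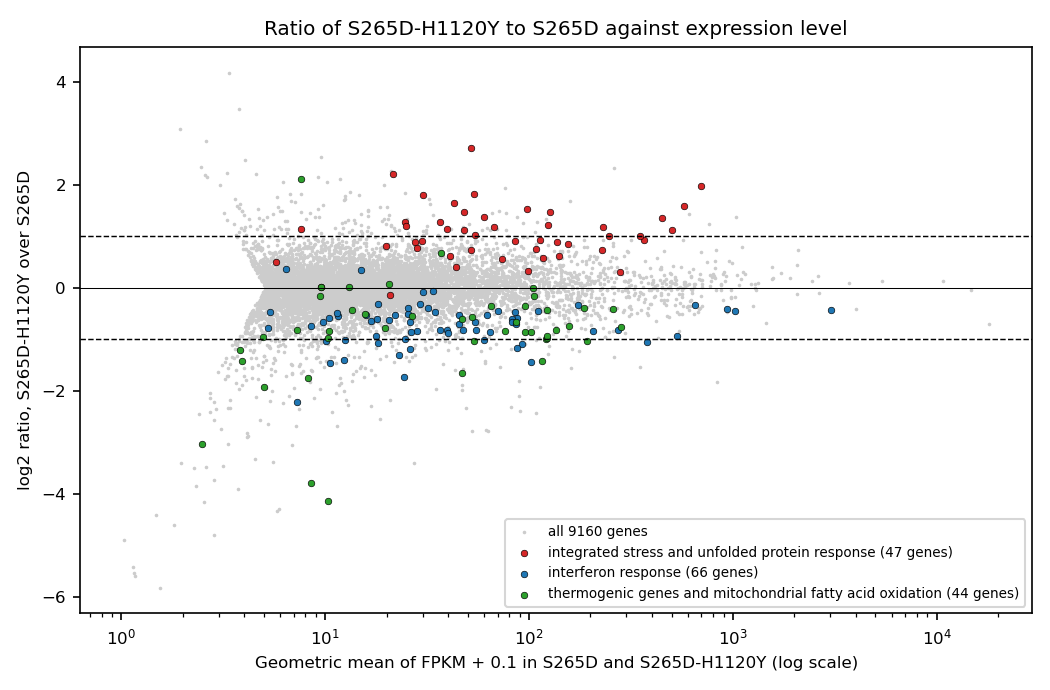
Each point is 1 of the 9160 genes, with the geometric mean of FPKM + 0.1 in S265D and S265D-H1120Y on the log x axis and the log2 ratio of S265D-H1120Y over S265D on the y axis; dashed lines mark 2-fold. The 47 integrated stress and unfolded protein response genes (red) lie almost all above 0 at every level, the 66 interferon response genes (blue) almost all below 0, and the thermogenic and fatty acid oxidation genes (green) mostly below 0.

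Genes of the integrated stress response and the unfolded protein response were higher in the catalytic mutant. Of the 47 members of this list that reached the FPKM minimum, 24 were at least 2-fold higher, none was 2-fold lower and 46 had a log2 ratio above 0. The median log2 ratio was 1.00, against -0.01 over all genes, and S265D-H1120Y was the highest of the 5 transduced samples for 41 of the 47. All 24 were higher in S265D-H1120Y than in the other 4 transduced samples. Between WT A and WT B the same list had a median of 0.23, with 9 members at least 2-fold higher in WT B and 2 lower, so part of the list also differed within 1 group. The share of members at least 2-fold higher was 51.1% between the mutants, against 1.92% of all genes. The remaining member, Cebpg, a partner of ATF4 in binding DNA, was close to level (21.6 and 19.6). Here and below, genes named beyond the fixed rule for named genes were chosen after their values were seen.

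ER chaperones and folding enzymes, which ATF6 and XBP1 control, were all on the high side, with 19 of 19 above 0, 8 at least 2-fold higher and S265D-H1120Y the highest of the 5 transduced samples for each of the 19. Hspa5 (chr2:34627610-34632049, mm9), which encodes BiP, the main ER chaperone and the protein that holds the stress sensors inactive, had an FPKM of 268 in WT A, 455 in WT B, 602 in S265A, 349.5 in S265D and 1382 in S265D-H1120Y. The untransduced sample had 216. S265D-H1120Y stood alone at the top, 3.95-fold above S265D and more than 2-fold above the next sample, while the log2 ratio of the WT pair was 0.76. Sdf2l1, a partner of BiP in ER quality control, had 12.8 in WT A, 12.1 in WT B, 16.8 in S265A, 9.92 in S265D and 45.9 in S265D-H1120Y. Creld2, a secreted ER stress protein, had 36.5 in WT A, 42.8 in WT B, 46.5 in S265A, 28.3 in S265D and 100.5 in S265D-H1120Y. In both genes S265D was the lowest and S265D-H1120Y the highest of the 5 samples. Hsp90b1, the ER form of HSP90, had 323 in WT A, 369 in WT B, 410.1 in S265A, 339 in S265D and 739 in S265D-H1120Y. All of these had their highest value in S265D-H1120Y. The remaining members past 2-fold were Hyou1, an exchange factor for BiP (24.0 and 75.4), Manf, a secreted ER factor (28.7 and 79.8), Dnajc3, an inhibitor of PERK (16.4 and 37.8), and Calr, the lectin chaperone calreticulin (247 and 496). Calr was the gene nearest the limit among all higher genes, and C77080 (5.08 and 10.2) lay just below it. Members that stayed under 2-fold included the disulfide isomerases Pdia4 (62.3 and 117) and Pdia6 (100.4 and 185), the lectin chaperone Canx (95.7 and 144) and the transcription factor Xbp1 (87.6 and 110.1).

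The promoters of these chaperones are shown because they carry a known element that can be looked for by its letters. The ER stress response element was searched as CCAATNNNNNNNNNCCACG on both strands of the RefSeq promoter windows, 250 bases before to 50 bases after the start site, in GRCm38.p6, a different build from the mm9 of the gene coordinates. It was found in 39 of 32851 promoters (0.119%), or 37 of 27025 gene symbols with a promoter (0.137%). The chaperone genes were listed as targets of ATF6 and XBP1, so their share partly follows from how the list was chosen. Of the 17 chaperone genes with a promoter in the table, 9 held the element (52.9%). Those 9 were Hspa5, Hsp90b1, Dnajc3, Pdia6, Calr, Canx, Creld2, Ero1lb and Syvn1, of which 5 were at least 2-fold higher. Capitals mark the matched letters in the sequences of those 5, written 5′ to 3′ on the strand of the gene.
Hspa5: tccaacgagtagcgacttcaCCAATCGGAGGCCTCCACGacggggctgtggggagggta
Hsp90b1: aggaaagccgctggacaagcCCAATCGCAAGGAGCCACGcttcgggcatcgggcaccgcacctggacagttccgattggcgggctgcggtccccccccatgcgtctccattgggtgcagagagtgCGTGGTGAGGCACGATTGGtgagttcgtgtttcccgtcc
Dnajc3: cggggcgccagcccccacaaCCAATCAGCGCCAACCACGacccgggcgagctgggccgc
Calr: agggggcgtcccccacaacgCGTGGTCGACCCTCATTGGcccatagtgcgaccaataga
Creld2: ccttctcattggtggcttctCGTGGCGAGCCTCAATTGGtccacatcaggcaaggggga
The windows lie at chr2:34772005-34772063, chr10:86705513-86705676, chr14:118937807-118937865, chr8:84847055-84847113 and chr15:88819500-88819558, on the +, -, +, - and + strand. Hsp90b1 holds the element once on each strand, and in Calr and Creld2 it reads on the opposite strand. A match describes the letters and does not show binding, and binding was not measured in these files.

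Targets of ATF4 and CHOP made up the other arm. Of 28 members at the FPKM minimum, 16 were at least 2-fold higher (57.1%, against 1.92% of all genes), with a median log2 ratio of 1.12. In the WT pair 9 of the 28 were at least 2-fold higher in WT B and 2 lower, with a median of 0.61. The chaperone list had 0 members past 2-fold in that pair. Atf3 (chr1:192994176-193007212, mm9), a stress-induced transcription factor, had an FPKM of 6.38 in WT A, 20.5 in WT B, 37.7 in S265A, 20.1 in S265D and 132 in S265D-H1120Y, with 22.3 in untransduced cells. It was 6.55-fold higher in S265D-H1120Y than in S265D and 1.67 apart between the WT samples on the log2 scale. Ddit3, which encodes CHOP, had 112 in WT A, 497 in WT B, 280.4 in S265A, 281 in S265D and 721 in S265D-H1120Y, and WT B came closest to the catalytic mutant. Ero1l, the oxidase that feeds disulfide formation in the ER, had 193 in WT A, 264 in WT B, 464 in S265A, 331 in S265D and 996 in S265D-H1120Y. Ppp1r15a, the GADD34 subunit that directs dephosphorylation of eIF2α, had 24.2 in WT A, 51.0 in WT B, 78.9 in S265A, 57.2 in S265D and 165 in S265D-H1120Y. For these genes S265D-H1120Y was above each of the other 5 samples, and S265D lay within the range of WT A, WT B and S265A. Atf4 itself had 196 in WT A, 320.2 in WT B, 399 in S265A and 505 in S265D-H1120Y, with a log2 ratio of 0.93 over S265D.

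Amino acid transport and synthesis followed the same side. Slc6a9, a glycine transporter, had 14.1 in WT A, 21.7 in WT B, 25.4 in S265A, 16.1 in S265D and 56.2 in S265D-H1120Y. S265D-H1120Y was more than 2-fold above every other transduced sample. Other carriers past 2-fold were Slc3a2, the heavy chain shared by several amino acid transporters (81.2 and 189), Slc7a1, which carries cationic amino acids (15.7 and 38.1), Slc7a5, the light chain for large neutral amino acids (26.7 and 58.6), and Slc7a11, the cystine carrier (5.02 and 11.2). Among enzymes of serine and folate metabolism, Phgdh, the first of serine synthesis (153 and 346), and Aldh1l2, a mitochondrial folate enzyme (76.1 and 210.0), were past 2-fold and Psat1, the next step after Phgdh (251 and 308), was not. Phgdh was nearly as high in S265A (342) as in S265D-H1120Y. The rest of the 16 were Cth, of cysteine synthesis (38.0 and 77.8), Chac1, which degrades glutathione (32.6 and 70.6), Sesn2, an inhibitor of mTORC1 (23.4 and 56.8), Gdf15, a secreted stress hormone (37.4 and 96.7), and Herpud1, of ER-associated degradation (44.7 and 101). Fgf21, a hormone that ATF4 can raise, was at 29.1 in WT A, 5.93 in WT B, 4.74 in S265A, 9.40 in S265D and 9.55 in S265D-H1120Y and did not follow these genes.

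Beyond that list, the cytosolic aminoacyl-tRNA synthetases, which charge tRNAs with amino acids and were added as a family after values had been seen, had 18 of 20 members above 0, 2 of them at least 2-fold higher, and a median log2 ratio of 0.63, against 0.05 in the WT pair. The 2 were Yars (47.0 and 103) and Tars (55.4 and 112), for tyrosine and threonine, and Lars (42.2 and 81.8) and Sars (191 and 348), for leucine and serine, came next. The mitochondrial synthetases, products of other genes, had a median of -0.13 over 11 genes, and 0 of the 11 reached 2-fold. Aldh18a1 (52.4 and 114) and Pycr1 (7.39 and 16.6), successive enzymes of proline synthesis, and Gpt2 (18.6 and 57.3), which makes alanine, were also at least 2-fold higher. So were Pdia5 (8.05 and 18.2), a disulfide isomerase, and Wfs1 (11.6 and 34.4) and Serp1 (73.8 and 156), membrane proteins of the ER.

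The C/EBP-ATF response element, through which ATF4 and CHOP bind, was searched as TGATGNAA on both strands of the same windows. It was found in 1304 of 32851 promoters (3.97%), or 1219 of 27025 gene symbols with a promoter (4.51%). Of the 25 ATF4 and CHOP targets with a promoter 9 held it (36.0%), namely Atf3, Chac1, Trib3, Asns, Slc7a11, Vldlr, Nupr1, Fgf21 and Herpud1. As these genes were listed as targets of the factors that bind the element, this share too partly follows from the choice. The share was no larger among the members at least 2-fold higher, where 4 of 13 with a promoter held it (30.8%). Those 4 are shown with the match in capitals, on the strand of the gene.
Atf3: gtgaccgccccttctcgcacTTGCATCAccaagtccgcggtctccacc
Chac1: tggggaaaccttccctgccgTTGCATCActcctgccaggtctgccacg
Slc7a11: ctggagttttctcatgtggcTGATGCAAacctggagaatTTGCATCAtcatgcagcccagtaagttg
Herpud1: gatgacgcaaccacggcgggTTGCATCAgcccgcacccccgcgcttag
In GRCm38.p6 they lie at chr1:191183416-191183463 (-), chr2:119351029-119351076 (+), chr3:50443633-50443699 (-) and chr8:94386297-94386344 (+). The element reads on the opposite strand in Atf3, Chac1 and Herpud1, and Slc7a11 holds it on both. Fgf21 holds it too and had a log2 ratio of 0.02, so the letters did not go with a higher level in every gene. None of the 25 held the ER stress response element, and none of the 17 chaperone genes held TGATGNAA.

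**Figure D2:**
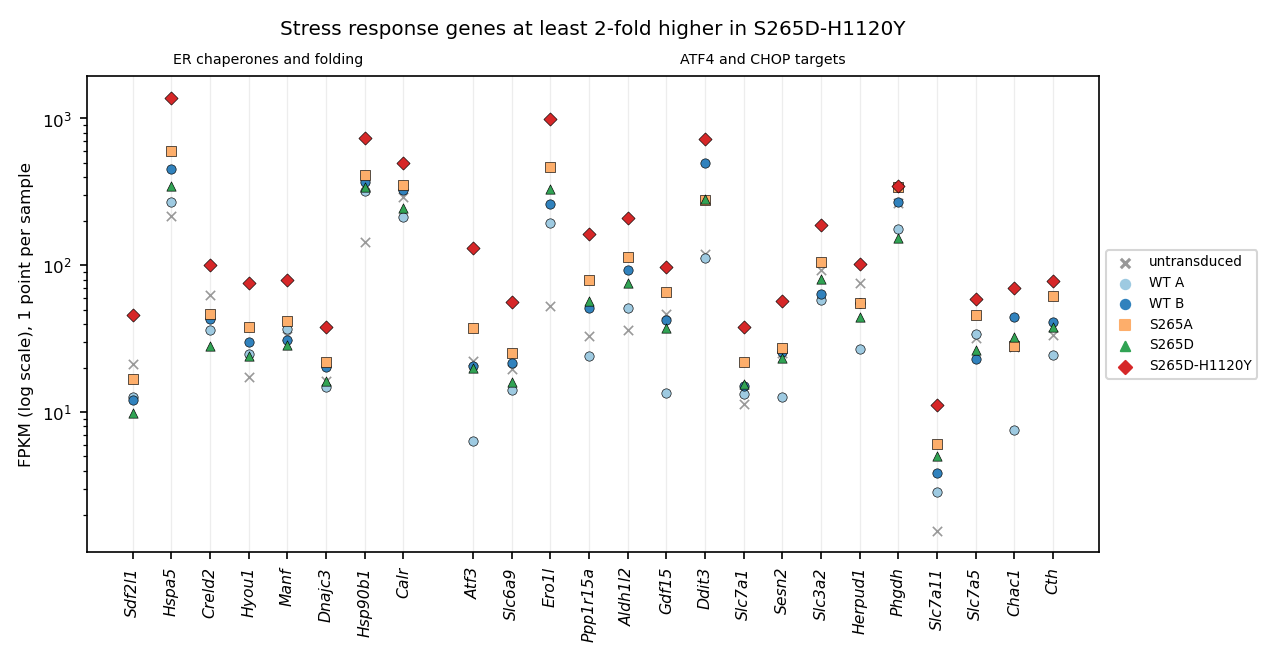
FPKM on a log y axis for the 24 stress response genes at least 2-fold higher in S265D-H1120Y than in S265D, 1 point per sample, split into 8 ER chaperone genes and 16 ATF4 and CHOP targets. S265D-H1120Y (red diamonds) is the highest of the transduced samples for all 24, with Hspa5 at 1382 against 349.5 in S265D and Atf3 at 132 against 20.1.

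The hypoxia list leaned the same way with fewer members past 2-fold. Of 31 genes of the hypoxia response, 6 were at least 2-fold higher (19.4%, against 1.92% of all genes) and 0 lower. The median log2 ratio was 0.31. In the WT pair 1 was at least 2-fold higher in WT B and 2 lower, with a median of 0.11. Ndrg1, a differentiation-related gene induced by low oxygen, had 43.3 in WT A, 82.3 in WT B, 119.9 in S265A, 117 in S265D and 585 in S265D-H1120Y, and S265D-H1120Y was 5.02-fold above S265D. Slc2a1, the glucose carrier GLUT1, had 29.2 in WT A, 41.8 in WT B, 47.1 in S265A, 70.0 in S265D and 171 in S265D-H1120Y. S265D was the next highest of the transduced samples for Slc2a1. The others of the 6 were Car9, a carbonic anhydrase and a usual mark of hypoxia (3.27 and 8.99), P4ha2, of collagen hydroxylation (39.8 and 86.6), Ddit4, an inhibitor of mTORC1 (41.6 and 93.1), and Ero1l, counted above. The glycolytic genes of that list did not go with them, as Ldha (991 and 965), Aldoa (2718 and 2546) and Pgk1 (1772 and 2033) were close to level, and Plod2 (75.0 and 37.8), of collagen modification, and Angptl4 (259 and 157), a PPAR target as well, were lower by less than 2-fold.

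In the list of p53 targets and cell cycle arrest, 4 of 26 genes were at least 2-fold higher (median 0.34), against 10 in WT B over WT A (median 0.72), among them Plk2, a stress kinase (5.63 and 24.5), and Gadd45a, a growth arrest gene (60.4 and 145). Sesn2 and Ddit4 were the other two, and both are also in lists above. Of 33 antioxidant and NRF2 target genes 3 were at least 2-fold higher and 1 lower. Hmox1, heme oxygenase, had 617 in WT A, 171 in WT B, 727 in S265A, 494 in S265D and 1169.8 in S265D-H1120Y, where S265A and WT A were also high. Mt2, a metallothionein, had 197 in WT A, 412 in WT B, 814 in S265A, 648 in S265D and 1669.9 in S265D-H1120Y. Gpx3, a secreted glutathione peroxidase, had 14.4 and 5.62. Of 22 immediate-early genes 3 were higher, Atf3, Klf4 (8.88 and 19) and Myc (21.1 and 43.0), and Cyr61 was lower. S265D-H1120Y was the highest of the transduced samples for Hmox1, Mt2, Klf4 and Myc. The ferritin genes Ftl1 (1613 and 2696) and Fth1 (1545 and 1895) and the cell cycle inhibitors Cdkn1a (228 and 227) and Cdkn2a (202 and 214), the most abundant members of their lists by FPKM, were inside the limit, and so was the immediate-early gene Maff (28.4 and 21.7). Heat shock genes, mostly chaperones of the cytosol, had 0 of 20 members past 2-fold in either direction and a median of 0.15. Hspa8 (662 and 739), Hsp90ab1 (359.7 and 341) and Hsp90aa1 (120.1 and 163) were near level, Hspa4l (10.3 and 17.0) was higher by less than 2-fold, and Cryab (33.8 and 19.2) and Bag3 (16.6 and 12.2) were lower by less than 2-fold.

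Several lipid and thermogenic genes were lower in the catalytic mutant. Of 22 thermogenic and beige genes at the FPKM minimum, 9 were at least 2-fold lower, against 3.18% of all genes, and 1 higher, against 1.92%, with a median log2 ratio of -0.96. The same list had a median of -1.58 between WT A and WT B, with 13 members at least 2-fold lower in WT B, so its spread within 1 group was larger than its difference between the mutants. Cidea, a lipid droplet protein of brown and beige fat, had 33.2 in WT A, 7.03 in WT B, 7.29 in S265A, 43.4 in S265D and 2.35 in S265D-H1120Y. Plin5 (chr17:56251024-56256971, mm9), which ties lipid droplets to mitochondria, had 58.8 in WT A, 11.9 in WT B, 18.3 in S265A, 31.6 in S265D and 2.18 in S265D-H1120Y. For both genes S265D was close to untransduced cells (40.8 for Cidea and 31.4 for Plin5), WT B and S265A were lower than S265D, and S265D-H1120Y was below all of them. Tbx1, a transcription factor and beige marker, had 1.50 in WT A, 1.43 in WT B, 2.00 in S265A, 7.03 in S265D and 0.769 in S265D-H1120Y, so S265D stood above the rest and S265D-H1120Y below. Adrb3, the β3-adrenergic receptor, had 5.48 in WT A, 5.58 in WT B, 2.18 in S265A, 9.65 in S265D and 2.47 in S265D-H1120Y, where S265D was again the high sample and S265A and S265D-H1120Y were alike. Pdk4, a kinase that holds back pyruvate oxidation, had 64.6 in WT A, 68.0 in WT B, 80.4 in S265A, 190.4 in S265D and 70.6 in S265D-H1120Y, with S265D alone high among the transduced samples and untransduced cells at 145. Ebf2, a transcription factor of brown and beige precursors, had 5.82 in WT A, 5.82 in WT B, 3.31 in S265A, 6.26 in S265D and 2.28 in S265D-H1120Y.

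Cpt1b, the muscle and brown fat carnitine palmitoyltransferase, had 76.4 in WT A, 7.01 in WT B, 6.95 in S265A, 15.0 in S265D and 4.36 in S265D-H1120Y. Ppara, the receptor for fatty acids that controls their oxidation, had 12.1 in WT A, 1.83 in WT B, 1.71 in S265A, 5.69 in S265D and 2.39 in S265D-H1120Y. For Ppara, S265D-H1120Y lay above WT B and S265A. Slc36a2, an amino acid carrier of brown and beige fat, had 82.7 and 26.2. Fabp3, a fatty acid carrier of muscle and brown fat, was the member that was higher, with 33.0 in WT A, 2.20 in WT B, 3.52 in S265A, 3.58 in S265D and 15.7 in S265D-H1120Y, and WT A was higher still. Several genes usually listed beside these did not differ 2-fold, such as Ppargc1a, the coactivator PGC-1α (9.86 and 8.75), Cox8b, a cytochrome oxidase subunit (73.7 and 57.8), and Elovl3, a fatty acid elongase (32.3 and 22.0). Ucp1 was below the FPKM minimum in both mutants and is not counted.

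Fatty acid oxidation showed a smaller and more even difference. Of 24 genes of mitochondrial fatty acid oxidation, 23 had a log2 ratio below 0, S265D-H1120Y was the lowest of the 5 transduced samples for 22 (25.1% of all genes), and 3 were at least 2-fold lower, Cpt1b, Cpt2 and Hadhb, with a median of -0.70. The median in the WT pair was -0.77, with 8 genes at least 2-fold lower in WT B. Hadhb, the β subunit of the trifunctional protein, had 323 in WT A, 162 in WT B, 141 in S265A, 277 in S265D and 135 in S265D-H1120Y. Cpt2, the carnitine palmitoyltransferase inside the mitochondrion, had 80.8 in WT A, 49.3 in WT B, 44.6 in S265A, 76.5 in S265D and 37.1 in S265D-H1120Y. Acadl, the long-chain acyl-CoA dehydrogenase, had 266 in WT A, 113 in WT B, 119 in S265A, 171 in S265D and 86.6 in S265D-H1120Y. In all 3 S265D lay between WT A and the other samples, and S265D-H1120Y lay lowest, close to S265A for Hadhb. Acadm, the medium-chain enzyme (368 and 219), and Etfa, which takes up the electrons of these dehydrogenases (299 and 223), were the most abundant by FPKM in S265D.

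Among 31 peroxisomal genes 4 were at least 2-fold lower, 1 higher, and the median was -0.35. The median in the WT pair was -0.53, with 3 genes at least 2-fold lower in WT B and 1 higher. Acaa1b, a peroxisomal thiolase, had 138 in WT A, 91.7 in WT B, 63.3 in S265A, 164 in S265D and 23.9 in S265D-H1120Y. Ehhadh, the peroxisomal bifunctional enzyme, had 39.0 in WT A, 6.84 in WT B, 7.06 in S265A, 7.58 in S265D and 1.42 in S265D-H1120Y. Abcd2, a carrier of very long-chain fatty acids, had 19.5 in WT A, 5.94 in WT B, 4.45 in S265A, 7.19 in S265D and 1.50 in S265D-H1120Y. S265D-H1120Y was below every other sample for each of the 3. Scp2, a sterol carrier and thiolase (244 and 108), was the fourth, and Cat, catalase (266 and 181), was inside the limit. Acox2, an oxidase for branched-chain fatty acids and bile acid precursors, was the exception, at 8.49 in WT A, 7.26 in WT B, 16.7 in S265A, 7.73 in S265D and 27.2 in S265D-H1120Y.

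Of 31 genes of lipogenesis and triglyceride synthesis 4 were at least 2-fold lower, 0 higher and 9 above 0, with a median of -0.34. The WT pair differed more, with a median of -0.76 and 11 genes at least 2-fold lower in WT B. Mlxipl, which encodes the glucose-sensing factor ChREBP and shares its locus with the entry Wbscr14, had 23.2 in WT A, 4.47 in WT B, 8.99 in S265A, 11.3 in S265D and 1.44 in S265D-H1120Y. S265D-H1120Y was the lowest of the 5 and WT A the highest. The others past 2-fold were Acacb, the acetyl-CoA carboxylase at mitochondria (31.3 and 9.63), Agpat2, an acyltransferase of triglyceride synthesis (597 and 205), and Thrsp, a lipogenic regulator (99.8 and 37.2). Scd1, the desaturase of stearate (4615 and 3465), and Gpd1, which makes glycerol phosphate (725 and 406), were the most abundant members by FPKM and were lower by less than 2-fold. Of 21 lipid droplet and lipolysis genes 4 were lower, Cidea, Plin5, Adrb3 and Ces1f (11.4 and 3.99), and the median was -0.60, close to the -0.61 of the WT pair. Plin2 (1046 and 1089.5), which coats droplets in most cells, was level and Cidec (767 and 538), of large droplets, was lower by less than 2-fold. Of 31 genes of the mature adipocyte 6 were lower, 0 higher and 27 below 0, with a median of -0.60. The WT pair had a median of -0.46 for them, with 7 at least 2-fold lower in WT B and 2 higher. Rbp4, the retinol carrier and adipokine, had 192 in WT A, 14.9 in WT B, 33.6 in S265A, 89.8 in S265D and 24.2 in S265D-H1120Y. WT B, not S265D-H1120Y, was the lowest of the transduced samples for it. Retn, the adipokine resistin, had 255 in WT A, 176 in WT B, 162 in S265A, 193 in S265D and 79.5 in S265D-H1120Y, and here S265D-H1120Y stood apart. Pnpla3, a lipid droplet acyltransferase (36.0 and 13.1), and Adipor2, a receptor for adiponectin (153 and 76.2), were also past 2-fold, as were Agpat2 and Thrsp, counted above. The genes that define adipogenesis differed less, with Pparg at 100.4 in S265D and 73.9 in S265D-H1120Y, Adipoq at 589 in S265D and 396 in S265D-H1120Y and Cebpa at 86.4 in S265D and 43.2 in S265D-H1120Y, just inside the limit.

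The summed FPKM of the 11 adipocyte markers was lower in S265D-H1120Y (16953) than in S265D (26854), WT B (30893) and S265A (27775) and near that of WT A (17342), and 10 of the 11 had a log2 ratio below 0. Fabp4 made up most of each sum. Without it, the other 10 markers summed to 2826 in S265D-H1120Y, the lowest of the transduced samples, to 3981 in S265D, 3991 in WT B and 3868 in S265A, and to 4949 in WT A, the highest of them. Lipe, the hormone-sensitive lipase (210.4 and 110.4), Lpl, lipoprotein lipase (793 and 569), and Fabp5 (1828 and 1142), a fatty acid carrier counted with the mature adipocyte genes, were lower by less than 2-fold. In bulk RNA, fewer adipocytes and less RNA of these genes in each adipocyte cannot be told apart, and this applies to each adipocyte gene named here. The part of the marker level in the lipid differences was not tested. Of the preadipocyte and fibroblast markers 9 reached the FPKM minimum, 1 was at least 2-fold lower, Ly6a (417 and 165), and 1 higher, Dpt (13.8 and 32.0), and their sum was 923.3 for S265D and 698.9 for S265D-H1120Y, which was below the other transduced samples (814.0 to 1044) and above untransduced cells (662.2). Pdgfra (27.1 and 15.9) and Thy1 (6.93 and 4.10), surface proteins of fibroblasts, were lower by less than 2-fold and Gsn (164 and 144) was near level. Those of smooth muscle and pericytes summed to 47.7 and 35.2, with Mcam (13.6 and 6.17) past 2-fold and Des (9.23 and 5.28) and Pdgfrb (17.3 and 16.1) inside the limit. The macrophage sum rested on Cd68 (10.3 and 21.7), a lysosomal protein that adipocytes and fibroblasts also make. The single markers of skeletal muscle, of cartilage and bone and of mesothelium and epithelium that reached the minimum, Acta1, Alpl and Krt19, did not differ 2-fold.

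**Figure D3:**
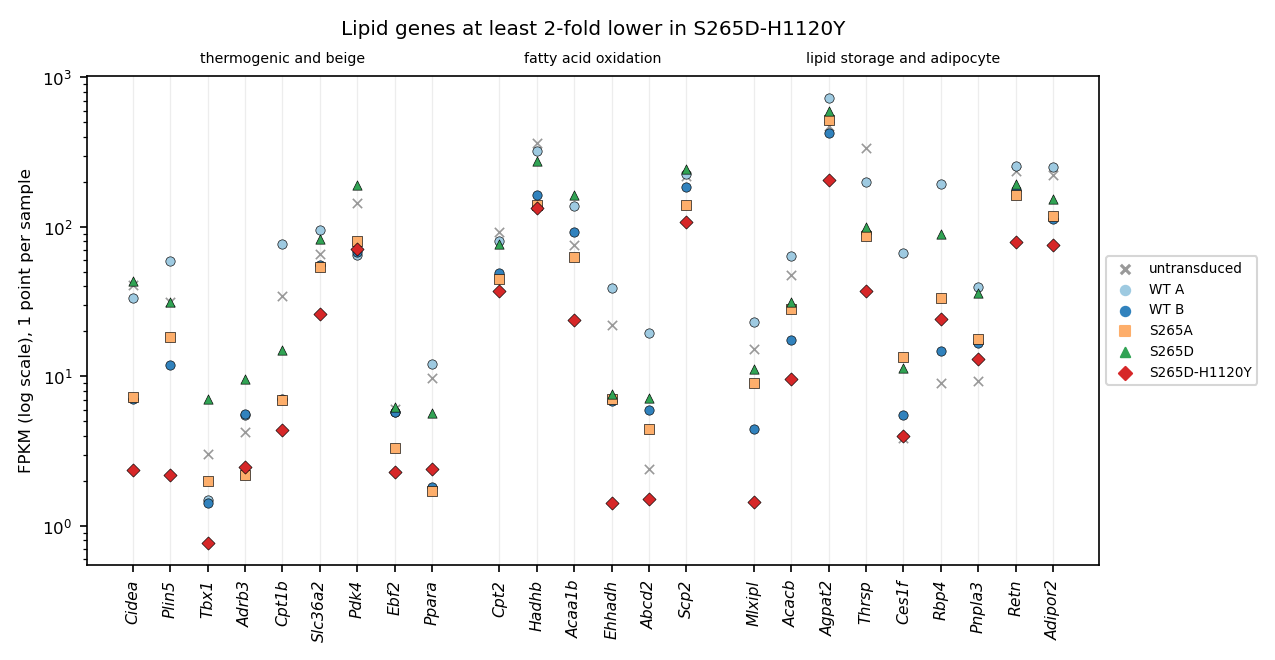
FPKM on a log y axis for 24 lipid and adipocyte genes at least 2-fold lower in S265D-H1120Y than in S265D, 1 point per sample, in 3 groups. S265D-H1120Y (red diamonds) is at or near the bottom for most genes, with Cidea at 2.35 against 43.4 in S265D, while WT A (light blue) and WT B (dark blue) often lie far apart, as for Cidea at 33.2 and 7.03.

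The list of retinoid and steroid metabolism, which also holds the adipokine gene Rarres2, had the lowest median of the 36 lists, -1.04. Of its 16 members 8 were at least 2-fold lower and 1 higher. Between WT A and WT B members went both ways, with 4 at least 2-fold lower in WT B, 4 higher and a median of 0.14. Aldh1a1, which makes retinoic acid, had 6.44 in WT A, 12.5 in WT B, 8.17 in S265A, 14.3 in S265D and 5.47 in S265D-H1120Y. Its relative Aldh1a7 had 258 in WT A, 54.8 in WT B, 75.3 in S265A, 82.0 in S265D and 27.5 in S265D-H1120Y. Adh1, an alcohol and retinol dehydrogenase, had 217 in WT A, 78.4 in WT B, 107 in S265A, 123 in S265D and 42.0 in S265D-H1120Y. S265D-H1120Y was the lowest of the transduced samples for all 3. Cyp1b1, a steroid and retinoid hydroxylase, had 3.19 in WT A, 18.0 in WT B, 8.65 in S265A, 15.1 in S265D and 4.82 in S265D-H1120Y. Rbp7, a retinoid-binding protein of adipocytes, had 9.06 in WT A, 9.69 in WT B, 5.19 in S265A, 6.26 in S265D and 2.01 in S265D-H1120Y, far below the 81.0 of untransduced cells in every transduced sample. The remaining lower members were Rbp4, given above, Rarres2, the adipokine chemerin (123 and 54.2), and Hsd17b11, a lipid droplet dehydrogenase (31.3 and 14.3), and the member that was higher was Akr1b7, an aldo-keto reductase (14.9 and 32.1).

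Receptors through which hormones and metabolites act on fat cells were added as a list after values had been seen. All 11 at the FPKM minimum had a log2 ratio below 0 and 6 were at least 2-fold lower, with a median of -1.59. Between WT A and WT B 6 of the 11 also passed 2-fold, 4 lower in WT B and 2 higher, with a median of -0.07. Mc2r, the corticotropin receptor, had 17.0 in WT A, 3.80 in WT B, 7.29 in S265A, 9.41 in S265D and 2.09 in S265D-H1120Y. Gpr81, the lactate receptor that restrains lipolysis, had 10.3 in WT A, 10.1 in WT B, 4.30 in S265A, 6.87 in S265D and 1.83 in S265D-H1120Y. Niacr1, the receptor for β-hydroxybutyrate and niacin, had 5.65 in WT A, 20.9 in WT B, 7.19 in S265A, 12.2 in S265D and 3.74 in S265D-H1120Y. WT A and WT B differed for Mc2r and Niacr1, in opposite directions. Adora1, an adenosine receptor that also restrains lipolysis, had 49.8 in WT A, 15.1 in WT B, 30.3 in S265A, 29.1 in S265D and 9.59 in S265D-H1120Y. Sucnr1, the succinate receptor, had 4.11 in WT A, 5.81 in WT B, 5.42 in S265A, 5.99 in S265D and 1.75 in S265D-H1120Y. S265D-H1120Y was the lowest of the transduced samples for these 5, and Adrb3, given above, is the remaining one.

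Glycogen metabolism, added in the same way, was divided. Pygl, glycogen phosphorylase of liver type, had 22.1 in WT A, 2.73 in WT B, 13.8 in S265A, 8.84 in S265D and 0.269 in S265D-H1120Y, so that S265D-H1120Y was near 0 and WT A highest. Of the subunits that bring protein phosphatase 1 to glycogen, Ppp1r3d had 13.6 in WT A, 4.27 in WT B, 1.41 in S265A, 10.6 in S265D and 0.502 in S265D-H1120Y. Ppp1r3c had 35.2 in WT A, 10.1 in WT B, 7.03 in S265A, 24.6 in S265D and 7.93 in S265D-H1120Y. Ppp1r3b had 23.8 in WT A, 2.49 in WT B, 3.65 in S265A, 14.7 in S265D and 4.79 in S265D-H1120Y. S265D and WT A were high for all 3, and WT B or S265A was below S265D-H1120Y for the last 2. Stbd1, which binds glycogen at membranes, was higher instead, at 12.0 in WT A, 42.6 in WT B, 52.2 in S265A, 42.3 in S265D and 118 in S265D-H1120Y. With 4 of 17 members lower and 1 higher, the median was -0.10, near that of all genes. In the wider list of glycolysis and glucose transport 3 of 24 genes were lower, Pygl, Ldhb (22.8 and 5.43) and the monocarboxylate carrier Slc16a3 (9.83 and 3.12), 1 was higher, Slc2a1, and the median was 0.02.

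Nuclear genes of the respiratory chain were slightly lower and none reached 2-fold. The median log2 ratio was -0.32 over 37 genes of complex I and -0.35 over 42 genes of complexes II to V, with 36 and 39 of them below 0 and with S265D-H1120Y the lowest of the 5 for 21 and 23. The WT pair had medians of -0.60 and -0.61. Cox7a1, the muscle and brown fat isoform of a cytochrome oxidase subunit, came closest to the limit, with 123 in WT A, 83.8 in WT B, 109.7 in S265A, 171 in S265D and 85.6 in S265D-H1120Y, whereas Cox4i1, a general subunit (1083 and 959), and Atp5b, of the ATP synthase (1424 and 1116), differed less. Among the other subunits with the largest ratios were Uqcrfs1 (237 and 137), Uqcrb (525 and 334) and Uqcrc2 (130.3 and 89.8) of complex III and Ndufb3 (195 and 125), Ndufa8 (180.4 and 125), Ndufa1 (176 and 122) and Ndufc1 (250.0 and 177) of complex I, while Ndufb9 (761 and 775) and Ndufa4 (601 and 528) were the most abundant of complex I by FPKM. Of 30 genes of the TCA cycle and pyruvate dehydrogenase the kinases Pdk4 and Pdk2 (39.6 and 15.5) were lower, and the median was -0.34, against -0.87 in the WT pair, where 10 were at least 2-fold lower in WT B. Idh3a (274 and 181), Cs (519 and 438) and Brp44, of the pyruvate carrier (183 and 121), were lower in S265D-H1120Y by less than 2-fold. The mitochondrial ribosome had a median of -0.14 over 75 genes (-0.37 in the WT pair) and branched-chain amino acid catabolism of -0.17 over 23 (-0.70 in the WT pair), with 0 members past 2-fold in both. Mrps36 (62.1 and 31.9) came closest in the former, before Mrps27 (21.6 and 13.4), Mrpl1 (14.1 and 9.19) and Mrpl46 (17.9 and 11.7), with Mrpl12 (195 and 143) and Mrps21 (163 and 161) the most abundant by FPKM. In the latter Auh (30.5 and 17.3), Mccc2 (21.0 and 14.2) and Acat1 (72.4 and 50.3) were lower by less than 2-fold, Bcat2 (78.7 and 115), the mitochondrial transaminase, was higher by less than 2-fold, and Dld (134 and 127) and Hsd17b10 (112 and 99.3) were near level. Of the 9 entries on the mitochondrial genome, the protein-coding transcripts Cox2 (10271 and 11274), Cytb (1766 and 2410.1) and mt-Nd4 (1341 and 1781) were higher by less than 2-fold. Only AK140265 and BC071253 were at least 2-fold lower, and S265A was below S265D-H1120Y for both.

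Interferon response genes were lower in S265D-H1120Y. Of 66 genes 15 were at least 2-fold lower, against 3.18% of all genes, and 0 higher, 64 had a log2 ratio below 0 and the median was -0.67. The WT pair differed more and in the opposite direction, with a median of 1.20 and 39 genes at least 2-fold higher in WT B. Of the 15 genes, S265D-H1120Y was the lowest of the 5 transduced samples for 7 and lay below both WT samples for 9. Irf7, the factor that amplifies the interferon response, had 68.2 in WT A, 202 in WT B, 92.7 in S265A, 169 in S265D and 62.2 in S265D-H1120Y. Oas3, a sensor of double-stranded RNA, had 2.19 in WT A, 17.4 in WT B, 4.98 in S265A, 15.6 in S265D and 3.28 in S265D-H1120Y. Zbp1, a sensor of Z-form nucleic acids, had 21.1 in WT A, 37.9 in WT B, 10.4 in S265A, 44.5 in S265D and 13.3 in S265D-H1120Y. For all 3 genes S265D and WT B formed the high pair and S265D-H1120Y lay near WT A or S265A. Bst2, or tetherin, had 259 in WT A, 576 in WT B, 371 in S265A, 545 in S265D and 262 in S265D-H1120Y. Ifit3 had 38.8 in WT A, 220.0 in WT B, 43.6 in S265A, 135 in S265D and 63.5 in S265D-H1120Y. For both, S265D and WT B were again the high samples. Ifi47, an immunity-related GTPase (17.4 and 6.29), was also past 2-fold. Isg15, an interferon-induced ubiquitin-like protein (277 and 154), Rsad2 (40.5 and 29.2), Ifit1 (67.8 and 42.8) and the class I gene H2-K1 (1197 and 881) were inside the 2-fold limit, while Mx1 (5.55 and 7.14) and Ifi205 (13.1 and 16.7) were the members above 0.

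By family, 7 of 7 Oas genes were below 0 and 4 at least 2-fold lower, against 3.18% of all genes. Of 11 guanylate-binding and immunity-related GTPase genes 11 were below 0 and 2 at least 2-fold lower. In the WT pair 5 of these Oas genes were at least 2-fold higher in WT B (median 1.72). So were 7 of these GTPase genes (median 1.48). Of 11 genes of antigen presentation 11 were below 0 and 1 at least 2-fold lower, the immunoproteasome subunit Psmb8 (130.1 and 57.8), and B2m, the light chain of class I molecules, had 3511 and 2602. Of 19 H2- genes, the mouse histocompatibility genes, 18 were below 0 and 6 at least 2-fold lower. H2-Q7 had 71.9 in WT A, 179 in WT B, 149.5 in S265A, 252 in S265D and 46.5 in S265D-H1120Y. H2-M3 had 4.39 in WT A, 13.9 in WT B, 9.18 in S265A, 12.8 in S265D and 4.91 in S265D-H1120Y. H2-DMb1, a class II chaperone, had 1.30 in WT A, 11.1 in WT B, 9.29 in S265A, 6.84 in S265D and 1.07 in S265D-H1120Y. S265D-H1120Y and WT A were the low transduced samples for these genes. H2-Q7 and H2-Q9 overlap in the annotation, and the H2-Q and the Oas1 genes are near copies of each other, so reads could be shared and their values are uncertain one by one.

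The interferon-stimulated response element, searched as GAAANNGAAA on both strands, was found in 1131 of 32851 promoters (3.44%). Only 50 of the 66 interferon genes had a promoter in the table, under 80%, so no share is given for the list. The windows around the element are shown for Oas3, Bst2 and Ifit3, members at least 2-fold lower that hold it before their start site, with the match in capitals.
Oas3: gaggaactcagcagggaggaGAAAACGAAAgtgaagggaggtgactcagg
Bst2: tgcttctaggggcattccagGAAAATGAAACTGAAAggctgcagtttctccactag
Ifit3: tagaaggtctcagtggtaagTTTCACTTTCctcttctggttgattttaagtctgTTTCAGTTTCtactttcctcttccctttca
In GRCm38.p6 these lie at chr5:120777705-120777754 (-), chr8:71537567-71537622 (-) and chr19:34583353-34583436 (+). Bst2 holds 2 overlapping copies and Ifit3 has 2 on the opposite strand. Isg15, Rsad2, Ifit1 and B2m, inside the 2-fold limit, hold the element too, and so does Ifi205, which was above 0. The letters therefore did not go with a 2-fold lower level in every gene.

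The list of chemokines, cytokines and complement, which also holds genes of other kinds such as Hp, Orm1 and Lcn2, went the same way. Of its 30 genes 10 were at least 2-fold lower and 1 higher, with a median of -0.54. In the WT pair 14 were at least 2-fold higher in WT B and 4 lower, with a median of 0.88. Il1rn, the antagonist of the interleukin 1 receptor, had 2.92 in WT A, 17.4 in WT B, 30.4 in S265A, 26.2 in S265D and 1.24 in S265D-H1120Y, lowest in S265D-H1120Y of all 6 samples, since untransduced cells had 5.57. Ccl5, a chemokine induced by interferon and NF-κB, had 15.3 in WT A, 189 in WT B, 68.2 in S265A, 181 in S265D and 36.3 in S265D-H1120Y. C4b, a complement component, had 27.8 in WT A, 79.8 in WT B, 63.4 in S265A, 75.2 in S265D and 24.8 in S265D-H1120Y. For Ccl5, S265D-H1120Y lay above WT A. Others past 2-fold were Hp, haptoglobin (13.6 and 3.11), Ptges, prostaglandin E synthase (24.4 and 7.54), Cfb, of the alternative complement pathway (14.5 and 5.67), and Cxcl16, a chemokine (5.85 and 2.62). Socs3 (6.07 and 2.83) and Nfkbia (33.0 and 15.6), which restrain cytokine and NF-κB signalling, were lower as well. Lcn2, lipocalin 2, an iron-carrier protein induced in inflammation, was the exception with 9.21 in WT A, 7.88 in WT B, 18.2 in S265A, 9.45 in S265D and 46.1 in S265D-H1120Y, while C3, the central complement component (119 and 176), and Orm1, an acute phase protein (332 and 183), were inside the limit.

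**Figure D4:**
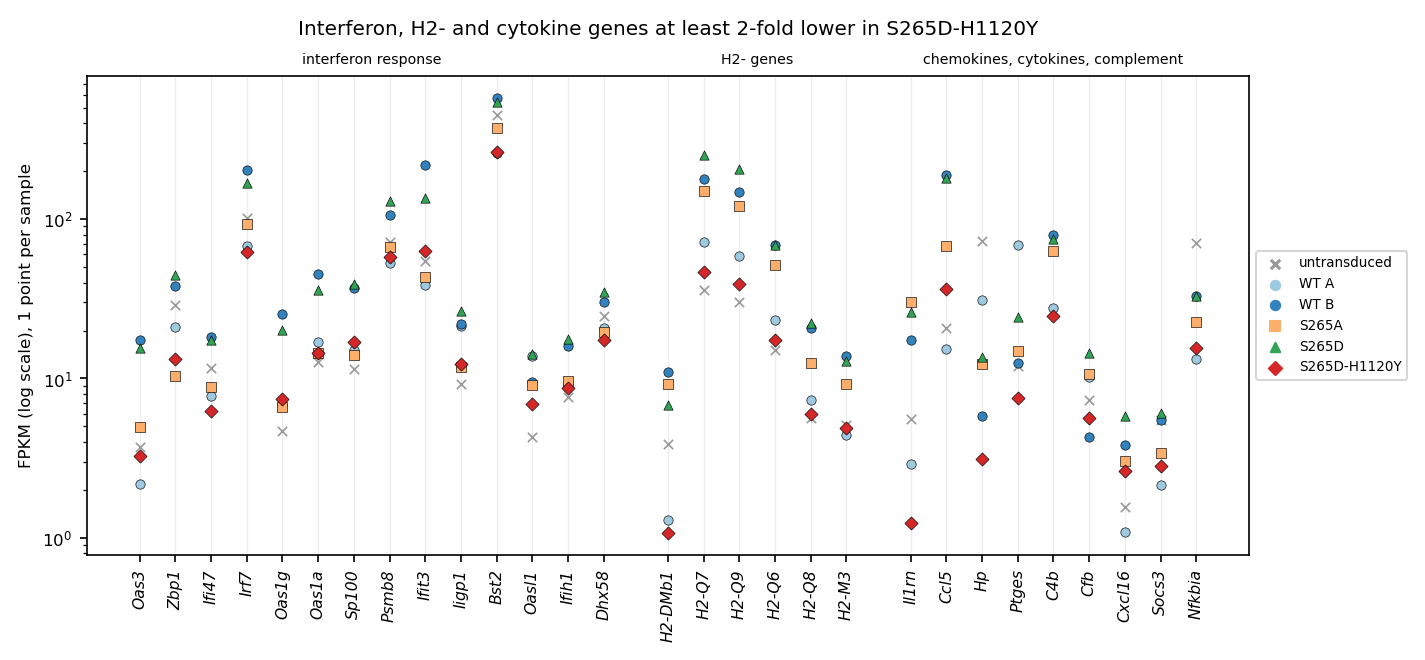
FPKM on a log y axis for genes at least 2-fold lower in S265D-H1120Y than in S265D, 1 point per sample. Shown are 14 of the interferon response genes, 6 H2- genes and 9 genes of the chemokine, cytokine and complement list. S265D (green) and WT B (dark blue) are mostly the high samples, as for Irf7 at 169 and 202, and S265D-H1120Y (red) and WT A (light blue) mostly the low ones, at 62.2 and 68.2.

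Matrix and growth factor genes were mixed. Of 32 proteoglycans and matrix glycoproteins 7 were at least 2-fold lower and 2 higher, with a median of -0.01. In the WT pair 10 were at least 2-fold higher in WT B and 4 lower. Spp1, osteopontin, had 3.92 in WT A, 127 in WT B, 65.9 in S265A, 88.5 in S265D and 8.24 in S265D-H1120Y. Thbs2, a thrombospondin, had 13.1 in WT A, 180.0 in WT B, 100.3 in S265A, 222 in S265D and 58.1 in S265D-H1120Y. Dcn, decorin, had 5.57 in WT A, 62.8 in WT B, 58.3 in S265A, 88.6 in S265D and 37.6 in S265D-H1120Y. For all 3 genes WT A was the lowest of the transduced samples and S265D-H1120Y the next, below WT B, S265A and S265D. Spon1 (25.4 and 8.75), Ogn (61.1 and 26.3), Ltbp1 (8.37 and 4.06), which holds latent TGF-β, and Emilin2 (17.5 and 8.66) were also lower, and Fbln1 (13.7 and 32.1) and Dpt were higher. Sparc (419 and 432) and Bgn (365 and 272) were the most abundant by FPKM and were inside the limit. Of 17 collagens 1 was lower, Col27a1 (11.6 and 1.87), while Col1a1 (146 and 154), Col3a1 (77.2 and 115), Col6a1 (466 and 422), Col6a2 (238 and 197), Col6a3 (147 and 97.1) and Col12a1 (8.53 and 6.02) were inside the limit. Of 23 matrix proteases and inhibitors 1 was lower, Mmp3 (8.95 and 3.41), and Mmp2 (23.5 and 13.1) and Loxl3 (26.2 and 14.7) were lower by less than 2-fold, whereas Serpinf1 (271 and 334) and Pcolce (155 and 131) were near level. In the list of TGF-β and BMP genes, 2 of 18 were lower, the BMP antagonist Grem1 (18.1 and 2.73) and the receptor Tgfbr2 (15.1 and 6.98), and Gdf15 was higher, with Tgfbr1 (4.21 and 6.78) and Fstl1 (76.7 and 57.2) inside the limit. Of 11 Wnt genes 1 was lower, Wisp2 (26.9 and 9.05), and Lgr4 (8.95 and 5.27), Sfrp4 (6.47 and 4.08), Apcdd1 (7.07 and 11.2) and Tle3 (30.9 and 21.3) were inside the limit. Of 19 genes of the IGF system 1 was higher, Igfbp3, a carrier of IGF, with 49.0 in WT A, 7.87 in WT B, 95.2 in S265A, 46.5 in S265D and 127 in S265D-H1120Y. Irs1, a substrate of the insulin receptor (12.9 and 6.66), and Pde3b, which ends cAMP signals after insulin (47.3 and 29.7), were lower by less than 2-fold, and Cav1 (198 and 166) and Igfbp7 (142 and 102) were the most abundant by FPKM.

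Of 28 actomyosin genes and targets of SRF 3 were lower and 1 higher, with a median of 0.02 against 0.85 in the WT pair. Ctgf, a matricellular factor, had 0.89 in WT A, 6.58 in WT B, 3.20 in S265A, 8.62 in S265D and 0.683 in S265D-H1120Y, and S265D-H1120Y and WT A were the low samples. Its relative Cyr61 (46.4 and 20.5) and Fhl1, a LIM protein of muscle (18.5 and 4.13), were the other lower members, Zyx, a focal adhesion protein (31.6 and 71.2), was the higher one, and the actins Actb (420.3 and 497) and Actg1 (340.0 and 386) were near level. Cell cycle and DNA replication genes were below 0 for 54 of 61, with a median of -0.27. In that list 1 gene was at least 2-fold lower (1.64%, against 3.18% of all genes). That gene, Brca1, of DNA repair, had 12.1 in WT A, 13.5 in WT B, 9.48 in S265A, 16.7 in S265D and 5.72 in S265D-H1120Y. The median of that list was -0.45 in the WT pair. Rrm2 (26.5 and 14.2), Aurkb (13.2 and 7.34) and Tk1 (43.1 and 25.4), of DNA synthesis and mitosis, came next, and Pcna (153 and 129) and Cdk4 (119 and 127) were the most abundant by FPKM. Of 11 Hox genes 1 was higher, Hoxb9 (7.69 and 18.5), while Hoxb7 (9.39 and 5.38), Hoxc6 (24.3 and 16.0), Hoxc8 (12.5 and 6.61) and Hoxc10 (21.0 and 13.0) were lower by less than 2-fold. Of 17 clock genes Rora (5.90 and 2.76) was lower and Gm129, a repressor in the clock, higher (9.56 and 26.8), and Bhlhe40 (53.6 and 91.1), Cry1 (8.43 and 12.8) and Tef (33.6 and 42.9) were inside the limit. Of 37 lysosome and autophagy genes Ctsk, cathepsin K (3.67 and 8.21), was higher, and Npc1, the cholesterol exporter (32.7 and 65.4), lay just inside the limit on the same side as Sqstm1, the autophagy receptor (359 and 586). Lipa, the acid lipase (157 and 80.0), lay just inside it on the other side, and Psap (650.1 and 606) and Ctsd (365 and 339.5) were near level. Of 26 cholesterol synthesis genes 1 was higher, Sqle, squalene epoxidase, with 69.3 in WT A, 66.6 in WT B, 110.2 in S265A, 76.3 in S265D and 192 in S265D-H1120Y, and the median was 0.00, with Sc4mol (40.5 and 75.7), Mvd (18.9 and 34.0) and Fdft1 (15.6 and 27.3) higher by less than 2-fold, Scd2 (711 and 845) near level and Insig1 (339.6 and 250.0) lower by less than 2-fold. Of 72 cytosolic ribosomal protein genes none reached 2-fold and the median was 0.09, with some of the largest ratios for Rpl10 (798 and 1140.0), Rpl8 (631 and 886) and Rpl30 (839.6 and 1166) and the most abundant members by FPKM, Rpl23a (1483 and 1684) and Rplp1 (1287 and 1370.2), near level.

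Enzymes that write, erase or read methylation of lysine 9 on histone H3 did not differ 2-fold. Over 22 genes the median log2 ratio was 0.16, from -0.49 for Phf2 to 0.95 for Kdm4a, whose FPKM was 19.1 in S265D and 37.0 in S265D-H1120Y. The relatives of the mutated enzyme were level, with Kdm3b (10.6 and 10.6) and Jmjd1c (12.5 and 13.9), and so were the methyltransferases Ehmt1 (10.2 and 9.20) and Ehmt2 (30.0 and 25.1). Uhrf1 (18.4 and 14.0), which reads the mark at hemimethylated DNA, Kdm4b (16.6 and 20.9), a demethylase of trimethylated lysine 9, and the HP1 proteins Cbx3 (59.3 and 52.5) and Cbx5 (31.6 and 31.1) were also inside the limit. Of 28 germline genes, a class that this mark keeps silent in many cells, 26 had an entry and none reached an FPKM of 5 in either mutant.

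**Figure D5:**
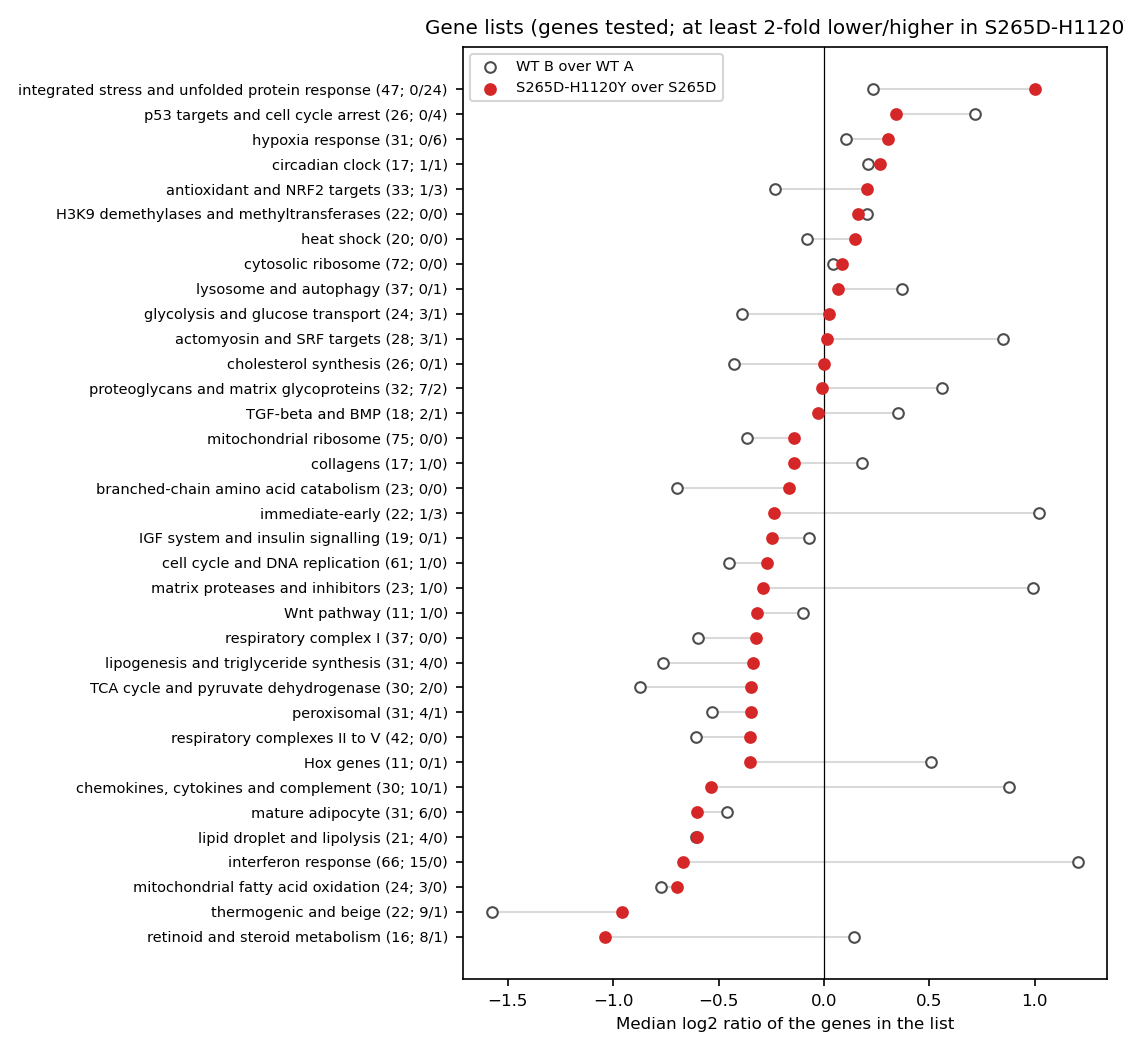
Median log2 ratio of the genes in each of the 35 lists with members at the FPKM minimum, for S265D-H1120Y over S265D (red) and for WT B over WT A (open circles), with the number of genes tested and the numbers at least 2-fold lower and higher beside each name. Stress response genes have the highest red median (1.00) with a WT median of 0.23, retinoid and steroid genes the lowest (-1.04), and interferon genes have medians of opposite sign (-0.67 and 1.20).

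The genes with the largest differences were mostly outside these lists, and many were near silent in 1 of the mutants. The 20 lowest ratios were those of etoile, Khdrbs3, Sdr39u1, Arap3, Snurf, Tpsab1, Pygl, Lims2, Mmd2, Il1rn, Ppp1r3d, Cidea, Prl2c3, Itih5, Plin5, 9030619P08Rik, Il31ra, Ctgf, Itgad and X57330. Arap3, a GTPase-activating protein, had an FPKM of 0.0102 in WT A, 0.0517 in WT B, 0.0827 in S265A, 7.38 in S265D and 0.0748 in S265D-H1120Y, so it was expressed in S265D and near 0 in every other sample. Mmd2, a membrane receptor of the PAQR family, had 3.23 in WT A, 4.07 in WT B, 1.76 in S265A, 25.8 in S265D and 1.19 in S265D-H1120Y, with S265D again alone. Khdrbs3 (chr15:68758850-68924946, mm9), an RNA-binding protein whose locus holds etoile as well, had 0.335 in WT A, 13.8 in WT B, 5.85 in S265A, 7.99 in S265D and 0.0676 in S265D-H1120Y, so it was near 0 in both S265D-H1120Y and WT A. Sdr39u1, a short-chain dehydrogenase, had 7.16 in WT A, 1.01 in WT B, 0.519 in S265A, 7.78 in S265D and 0.0707 in S265D-H1120Y. Tpsab1, a mast cell tryptase, had 0.541 in WT A, 11.3 in WT B, 6.34 in S265A, 14.9 in S265D and 0.437 in S265D-H1120Y. The log2 ratio of WT B over WT A was 4.99 for Khdrbs3, -2.71 for Sdr39u1 and 4.15 for Tpsab1. Itih5, a hyaluronan-binding secreted protein, had 4.42 in WT A, 8.98 in WT B, 8.08 in S265A, 8.70 in S265D and 0.51 in S265D-H1120Y, so S265D-H1120Y alone was low among the transduced samples. Prl2c3 belongs to a family of near-identical genes, and its value may include reads of the others.

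The 20 highest ratios were those of Ces1a, Pdzd7, Clec3b, Cbs, Atf3, Car6, Ank2, Boc, Ndrg1, Lcn2, Penk, Cpeb1, Sdf2l1, Rragd, Gm514, Ccdc3, Plk2, Fabp3, Unc5b and Nrip2. Ces1a, a carboxylesterase, had 0.0682 in WT A, 2.54 in WT B, 0.248 in S265A, 0.692 in S265D and 14.2 in S265D-H1120Y. Pdzd7 had 0.481 in WT A, 1.89 in WT B, 3.33 in S265A, 1.04 in S265D and 12.5 in S265D-H1120Y. Car6, a secreted carbonic anhydrase, had 1.87 in WT A, 4.19 in WT B, 3.36 in S265A, 3.87 in S265D and 22.9 in S265D-H1120Y. Ank2, which anchors membrane proteins to the cytoskeleton, had 2.16 in WT A, 1.72 in WT B, 1.44 in S265A, 1.62 in S265D and 9.48 in S265D-H1120Y. Ccdc3, a secreted protein of fat and endothelium, had 5.12 in WT A, 3.80 in WT B, 5.51 in S265A, 4.28 in S265D and 19.3 in S265D-H1120Y. For these 5 genes S265D-H1120Y was the highest of the 6 samples, and for Ank2 and Ccdc3 the other 4 transduced samples lay close together, with untransduced cells lower (0.582 and 3.35). Cbs, which starts the conversion of homocysteine to cysteine, had 1.61 in WT A, 2.31 in WT B, 3.42 in S265A, 0.867 in S265D and 6.84 in S265D-H1120Y, with 5.94 in untransduced cells. Clec3b, tetranectin, had 3.78 in WT A, 0.436 in WT B, 1.85 in S265A, 0.566 in S265D and 5.54 in S265D-H1120Y, so S265D and WT B were low and the value in S265D-H1120Y was near that of WT A. Boc, a hedgehog co-receptor, had 8.76 in WT A, 0.722 in WT B, 3.98 in S265A, 0.988 in S265D and 5.43 in S265D-H1120Y, below WT A. Of the 467 genes past 2-fold, 125 were in any of the 36 lists, 78 lower and 47 higher, and 1021 of the 9160 genes were in a list. Some of these genes are counted more than once, since 18 loci held pairs of overlapping entries that were both past 2-fold.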

How the data were processed

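Stranded RNA-seq was measured in 11 samples, of which S265D and S265D-H1120Y were compared (n = 1 each) and the other day 8 samples with rosiglitazone served as reference. The authors aligned reads with the Burrows-Wheeler aligner to UCSC transcripts and to the mouse genome, mm9 in the submitters' processing notes, realigned them locally and deposited FPKM for each transcript and strand. Tool versions are not given in the sources used here. The deposited files also hold log2 and log10 of the same FPKM and the signal in mapped bases, from which depth was taken.

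Sense rows marked as representative were kept, with an FPKM of at least 5 in either mutant. Ratios were of FPKM + 0.1, and 2-fold was the limit. limma 3.58.1 (R 4.3.3) was fitted to log2(FPKM + 0.1) of the 5 transduced samples, with Benjamini-Hochberg adjustment. It was first run on simulated data with the same small spread for every gene. The WT pair spread more widely, with log2 quartiles of -0.39 and 0.43, so that run does not show how the fit performs here. The labels do not say that WT A and WT B came from separate cultures, so their spread may be technical. Other steps used Python 3.11.15 with pandas 2.3.3, numpy 2.4.6 and matplotlib 3.10.9. Promoters were RefSeq windows of GRCm38.p6 matched by symbol or synonym.

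Named genes were the 20 lowest and 20 highest ratios, up to 4 members of each list with the largest ratio and 2 with the highest FPKM in S265D, and Kdm3a. The members and lists were chosen with earlier results of these data known. Sublists, gene families, the lists of tRNA synthetases, glycogen genes and receptors, and other named genes were chosen after values were seen. Values of some genes are not reported here. Alternatives were other FPKM minimums, a pseudocount of 1, median centring, upper quartile scaling, another choice of transcript, and, chosen after seeing the data, 1 row per overlapping locus.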

Additional observations from a re-analysis of the deposited data

How the results depend on the processing

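With 1 sample for each mutant, no sample could be left out and none of the ratios carries an error. The counts of genes past 2-fold depended on the FPKM minimum. They were 573 lower and 302 higher at a minimum of 1, 110 and 98 at a minimum of 20, and 991 and 609 with no minimum, against 291 and 176. Lower genes made up 52.9% of those past 2-fold at a minimum of 20, against 62.3% at 5, and between 59.8% and 65.5% under the other settings. A pseudocount of 1 gave 229 and 149 and lowered 2 list counts and brought 23 medians and ratios nearer to 0 by more than the SD of the WT pair, among them ratios of genes near silent in 1 mutant, with the log2 ratio at -3.04 against -5.53 for Sdr39u1 and at -2.96 against -5.42 for Arap3. Median centring gave 280 and 188, upper quartile scaling 295 and 173, the transcript with the highest mean FPKM 297 and 186, and 1 row per overlapping locus, chosen after seeing the data, 277 and 170. limma called 0 genes under each of its 5 settings, with an unadjusted p under 0.05 for 130 genes as reported, 396 with the day 0 pair added, 126 with a pseudocount of 1, 173 at a minimum of 1 and 105 with a trended prior. No named gene past 2-fold changed its direction under these settings. No paired analysis was possible because only WT-hJMJD1A had a second sample. At the median exon length an FPKM of 0.1 corresponded to 1272 mapped bases in S265D and 1177 in S265D-H1120Y, so levels near 0 rest on few reads.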
